A study of Mus musculus with 12 samples.

Results

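The genes described here are the 10 genes through which cone photoreceptors turn light into an electrical signal: Opn1sw, Opn1mw, Arr3, Gnat2, Gnb3, Gngt2, Pde6c, Pde6h, Cnga3 and Cngb3. They were taken by gene name from a table of 32867 genes, and all 10 were found and passed the filter on low counts in every comparison. Total RNA of the mouse retina was sequenced after the removal of ribosomal RNA, in 12 samples of 4 groups, 3 samples each. Pde6b rd1 mice, sampled at postnatal day 13, and Pde6b rd10 mice, sampled at day 23, carry different mutations of Pde6b, which encodes the beta subunit of the rod phosphodiesterase. Prph rd2 mice, sampled at day 29, carry a mutation of Prph2, which encodes a structural protein of the outer segment discs. C3H mice with wild-type alleles of both genes served as control, and the labels give their samples days 13, 23 and 29, 1 sample each.

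By the study's methods, Pde6b rd1 and C3H share the C3H background, Pde6b rd10 is on C57Bl6/J, and mice were used irrespective of sex. For Prph rd2 the methods name C3H and the labels C57BL6/J. Each model was sampled at 1 age only, so that allele and age, and for Pde6b rd10 also strain, cannot be told apart between the models. Each model was compared with all C3H samples together, of which only 1 carries the day of the model by the labels. Age is thus not matched in the comparisons with C3H either, and its part in them was not tested. By the labels, strain cannot be told apart from the allele in Prph rd2 against C3H either. The sex-linked transcripts given below differ between the groups as well. The study calls the samples of a group biological replicates, and how many animals each sample holds is not given in the sources used here.

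Cones serve daylight and colour vision and are far fewer than rods in the mouse retina. In both, light activates an opsin, the opsin activates the G protein transducin, transducin releases the catalytic subunits of phosphodiesterase 6 from their inhibitory subunit, and the fall of cyclic GMP closes a cyclic nucleotide-gated channel, while arrestin ends the signal. Cones and rods use different genes for nearly every step. All mutations studied here lie in genes on which rods depend, and in such diseases cones are typically lost after rods.

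The samples held 17049495 to 24755890 reads assigned to genes, and 3 counts, the smallest number taken as detected, corresponded to 0.121 to 0.176 CPM. Counts are of reads without molecular identifiers, so that this floor covers counting error only. Every cone gene lay above the floor in all 12 samples, with a lowest count of 102 for Cnga3. Levels are given as FPKM, which relate a gene's reads to its length and to the depth of the sample, and can be compared between genes. The targeted genes were lower in the models, with 4937 to 6253 reads of Pde6b in Pde6b rd1 against 24335 to 29129 in C3H and 16340 to 21014 in Pde6b rd10, and 30656 to 34634 reads of Prph2 in Prph rd2 against 52768 to 65756 in C3H. The sex-linked transcripts were unequal between groups: reads of the X-inactivation transcript Xist numbered 8 to 10 in C3H and 64914 to 83716 in Pde6b rd1, and reads of the Y-linked Ddx3y numbered 1481 to 2005 and 0. Pde6b rd10 and Prph rd2 held both transcripts. Reads of Xist numbered 13428 to 18861 in Pde6b rd10 and 37187 to 47452 in Prph rd2, and reads of Ddx3y 1056 to 1696 and 757 to 907. In Pde6b rd1 against C3H, sex as read from these transcripts cannot be told apart from the allele for any of the 10 genes. In the other models Xist also lay above every C3H sample, so that the part of sex cannot be told apart from the group and was not tested. Of the cone genes, Opn1mw and Arr3 lie on the X chromosome.

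RefSeq promoter sequences, from 250 bases before to 50 bases after the gene start on GRCm38.p6, were matched for 6 of the 10 genes. Those of both cone opsins, of the transducin alpha subunit and of the inhibitory phosphodiesterase subunit are printed here because Opn1mw, Gnat2 and Pde6h fell in Pde6b rd1 while Opn1sw, the other opsin, did not pass the fold threshold. Each is written 5′ to 3′ in the direction of transcription, and capitals mark TAATCC, the core motif of the photoreceptor factors CRX and OTX2, or AGGTCA, a core binding motif of nuclear receptors, on either strand. Their reverse complements are GGATTA and TGACCT.
Opn1sw, chr6:29380464-29380763, minus strand: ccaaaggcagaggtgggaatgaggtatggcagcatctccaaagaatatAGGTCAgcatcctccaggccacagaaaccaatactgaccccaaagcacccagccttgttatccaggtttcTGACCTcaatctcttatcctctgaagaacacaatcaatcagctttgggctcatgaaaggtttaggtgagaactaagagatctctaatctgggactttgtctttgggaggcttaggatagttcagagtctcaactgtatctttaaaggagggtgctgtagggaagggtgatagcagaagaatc
Opn1mw, chrX:74127216-74127515, plus strand: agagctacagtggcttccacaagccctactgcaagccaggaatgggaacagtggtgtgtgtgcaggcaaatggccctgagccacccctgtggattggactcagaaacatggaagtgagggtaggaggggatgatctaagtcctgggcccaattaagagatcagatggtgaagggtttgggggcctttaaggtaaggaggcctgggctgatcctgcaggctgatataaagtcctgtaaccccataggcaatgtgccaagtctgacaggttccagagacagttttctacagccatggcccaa
Gnat2, chr3:108092816-108093115, plus strand: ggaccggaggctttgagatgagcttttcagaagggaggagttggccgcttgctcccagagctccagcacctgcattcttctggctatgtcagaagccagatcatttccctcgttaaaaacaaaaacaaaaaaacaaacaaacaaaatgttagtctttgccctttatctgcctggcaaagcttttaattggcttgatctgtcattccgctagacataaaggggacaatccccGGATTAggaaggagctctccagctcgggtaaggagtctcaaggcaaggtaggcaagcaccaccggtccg
Pde6h, chr6:136954273-136954572, plus strand: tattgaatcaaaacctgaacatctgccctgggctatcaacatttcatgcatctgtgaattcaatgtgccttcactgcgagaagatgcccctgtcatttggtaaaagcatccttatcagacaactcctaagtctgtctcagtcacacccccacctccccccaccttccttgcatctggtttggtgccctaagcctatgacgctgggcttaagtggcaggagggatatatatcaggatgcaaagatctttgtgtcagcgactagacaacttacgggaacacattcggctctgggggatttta
AGGTCA occurred at 2 places in the Opn1sw promoter, starting 202 and 132 bases before the gene start, and TAATCC at 1 place in that of Gnat2, on the opposite strand 19 bases before the start. No other promoter of the matched cone genes held either motif, Arr3 and Cnga3 included. Among all 32851 promoters of the same length, 16.3% held AGGTCA and 7.06% held TAATCC, and a match of 6 bases is a description of the letters only.

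On GRCm38, with the gene limits of GENCODE vM21, Opn1sw lies at chr6:29376671-29388468 on the minus strand, Opn1mw at chrX:74127464-74150760 and Arr3 at chrX:100605497-100618493. The transducin genes are Gnat2 at chr3:108092789-108101432, Gnb3 at chr6:124834240-124840275 on the minus strand and Gngt2 at chr11:95837216-95845734. The phosphodiesterase genes are Pde6c at chr19:38132781-38183958 and Pde6h at chr6:136923832-136968865, and the channel genes are Cnga3 at chr1:37214434-37263384 and Cngb3 at chr4:19280850-19510623, all on the plus strand where no strand is named. For Opn1sw, Gngt2 and Pde6h, exons of a gene on the opposite strand overlap their own, and whether the counting used strand is not given in the sources used here. Of the exonic bases of Opn1sw, 397 or 15.5% are shared with Calu, which was not called in any comparison. The part of these shared bases in the counts of Opn1sw was not tested.

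In C3H, the cone genes spanned a wide range of levels. Gnb3, the transducin beta subunit, was highest with 108.7 ± 2.70 FPKM (SD, n = 3), followed by Opn1sw, the short-wavelength cone opsin, with 96.7 ± 0.698 FPKM. Opn1mw, the middle-wavelength opsin, stood at 36.2 ± 0.238 FPKM, and the 2 lowest genes were Pde6h, the inhibitory phosphodiesterase subunit, with 2.101 ± 0.0529 FPKM and Cnga3, the alpha subunit of the cone channel, with 1.96 ± 0.175 FPKM. By the mean over all 12 samples, Gnb3 lay above 99.6% and Cnga3 above 64.8% of the genes in the table. Gnb3 is not particular to cones, since ON bipolar cells are known to use it as well. For Pde6h, the length behind the FPKM is the 7846 bases of all its annotated exons combined, whereas its single transcripts have 211 to 5940 bases. The level of Pde6h against other genes therefore depends on this length, while its fold changes between groups do not.

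The 3 C3H samples differed little in the cone genes although they carry different days. The highest FPKM was 1.01 to 1.24 times the lowest, depending on the gene, with a median of 1.06 and the widest spread for Gngt2. In Pde6b rd1, Pde6b rd10 and Prph rd2, whose samples share a day, the median over the 10 genes was 1.07, 1.04 and 1.11. Over all genes with enough reads, pairs of C3H samples differed by a chi-square of 1.82 to 3.18 per gene, against 1.76 to 3.73 for pairs of Pde6b rd1, 2.55 to 7.14 for Pde6b rd10 and 6.04 to 12.3 for Prph rd2. The pairs of C3H samples, which carry different days, thus lay within the range of pairs of the same day in the models.

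**Figure D1:**
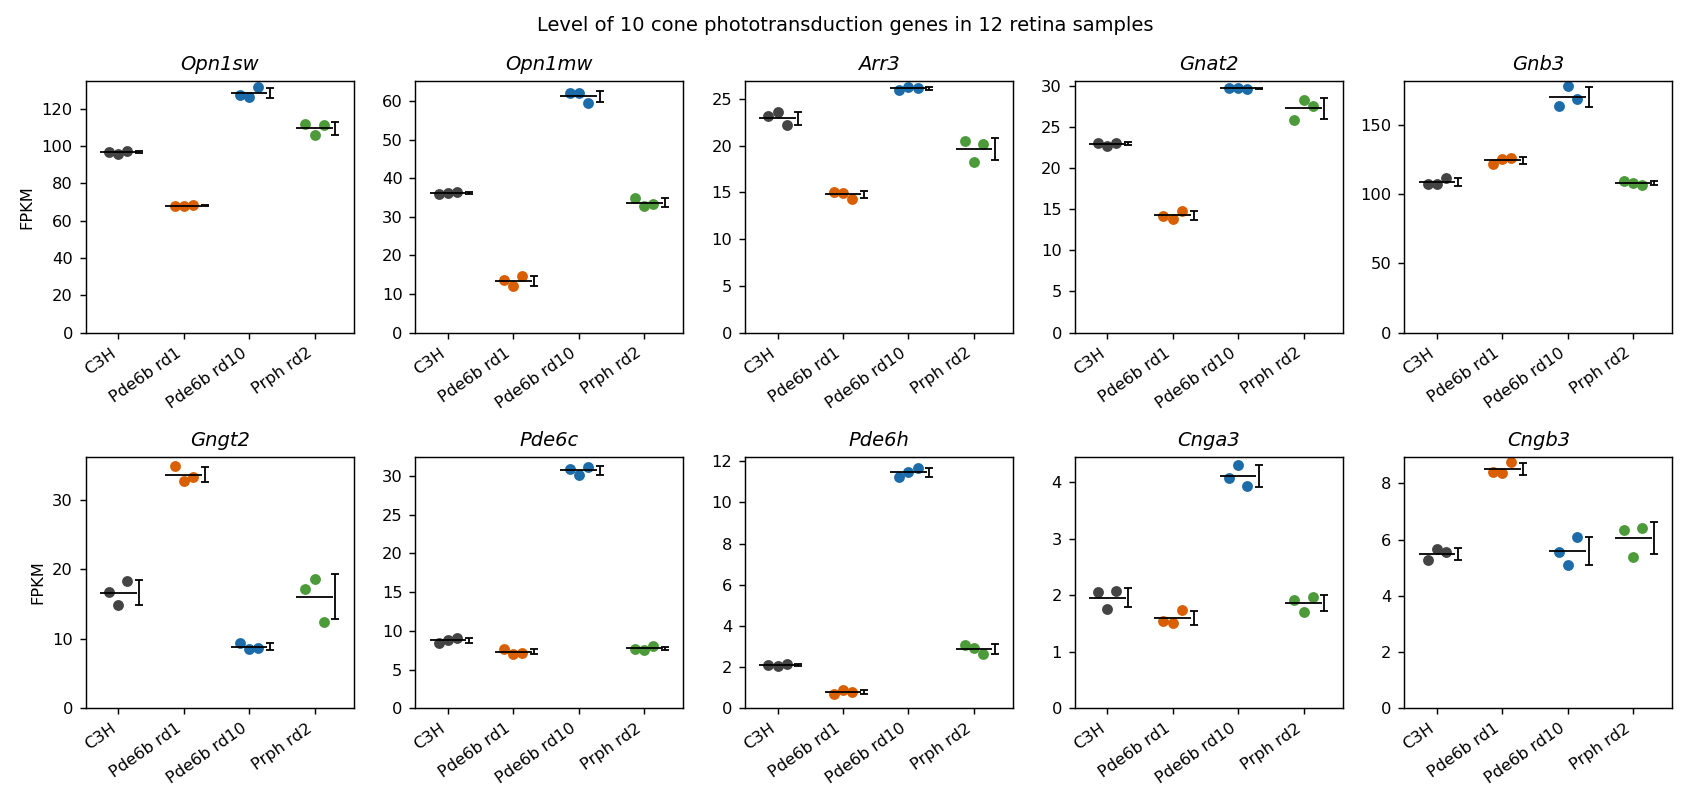
FPKM of each cone gene (vertical axes, linear from 0) in the 12 retina samples, with 1 point per sample, a line at the group mean and a bar of ± 1 SD (n = 3). Pde6b rd10 is highest for 8 of the 10 genes, and Gngt2 and Cngb3 are highest in Pde6b rd1.

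In Pde6b rd1 at day 13, 4 cone genes fell and 1 rose, or 2 with Cngb3 under 3 of the alternative settings. Opn1mw, Pde6h, Gnat2 and Arr3 were lower than in C3H, Gngt2, the transducin gamma subunit of cones, was higher, and the other 5 genes missed the criteria for a call, which were 1.5-fold or more together with an unadjusted p under 0.05. Among all 18310 genes tested, 6.03% were called lower and 8.98% higher. The median log2 fold change of the 10 cone genes was -0.47, against -0.01 over all genes. All 10 had an adjusted p under 0.05 by edgeR's quasi-likelihood test with Benjamini-Hochberg adjustment, with changes in both directions. The share of all genes under this adjusted p, without the fold threshold, is not given here. In this comparison the part of sex cannot be told apart from that of the allele. Most of the C3H samples also carry another day by the labels, and the part of age was not tested.

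In Pde6b rd10 at day 23, the balance was the other way. Pde6h, Pde6c, Cnga3, Opn1mw and Gnb3 rose and Gngt2 fell, while Opn1sw, Gnat2, Arr3 and Cngb3 were not called. Among all 18704 genes tested, 15.9% were called higher and 8.08% lower. The median log2 fold change of the cone genes was 0.47, against -0.00248 over all genes, and 9 of the 10 had an adjusted p under 0.05. The shares above are of calls, and the share of all genes under this adjusted p alone is not given here. In a whole retina, more or fewer cones and more or less RNA per cone cannot be told apart, here and in the values that follow. A changed share of RNA from other cells, such as rods, cannot be told apart from these either.

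In Prph rd2 at day 29, none of the 10 cone genes was called in either direction. Among all 18581 genes tested, 2.68% were called higher and 1.89% lower. For 10 genes, the absence of calls is near these shares and does not set the cone genes apart. The median log2 fold change was -0.06, against -0.00125 over all genes. At an unadjusted p under 0.05, 6 of the 10 genes differed, and Pde6h, Gnat2 and Arr3 kept an adjusted p under 0.05 with edgeR, at 0.00382, 0.0166 and 0.0176. How many of all genes passed these cuts without the fold threshold is not given here. Under DESeq2 the count of called cone genes was 0 as well.

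**Figure D2:**
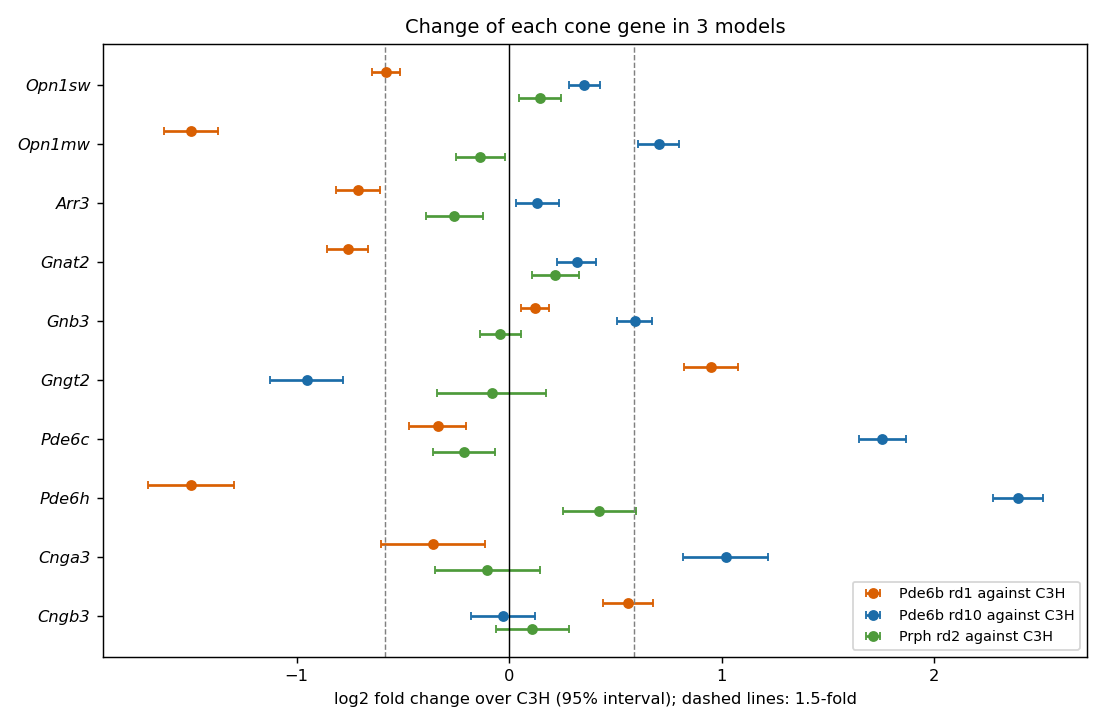
Log2 fold change of each cone gene over C3H with its 95% interval from edgeR, for each model (n = 3 against 3), with dashed lines at 1.5-fold in either direction. Opn1mw and Pde6h lie left of the dashed lines in Pde6b rd1 and right of them in Pde6b rd10, Gngt2 does the reverse, and the points of Prph rd2 stay inside the lines for every gene.

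The light-absorbing pigments differed from each other in how far they moved. Opn1mw had 35.9, 36.3 and 36.4 FPKM in C3H, 13.7, 12.1 and 14.6 FPKM in Pde6b rd1, 62.1, 62.0 and 59.5 FPKM in Pde6b rd10, and 34.98, 32.8 and 33.3 FPKM in Prph rd2. No sample of Pde6b rd1 or Pde6b rd10 overlapped C3H, and all of Prph rd2 lay just under it. The log2 fold change of Opn1mw was -1.50 (SE 0.06, adjusted p = 1.11e-15) in Pde6b rd1, 0.70 (SE 0.05, adjusted p = 5.13e-11) in Pde6b rd10, and -0.13 in Prph rd2 with an adjusted p of 0.146. Opn1sw had 96.9, 95.9 and 97.2 FPKM in C3H, 67.7, 68.0 and 68.3 FPKM in Pde6b rd1, 127.4, 126.2 and 131.5 FPKM in Pde6b rd10, and 111.7, 105.6 and 111.0 FPKM in Prph rd2. Its 4 groups did not overlap, but no difference from C3H reached the fold threshold. In Pde6b rd1 the log2 fold change of Opn1sw was -0.58 (95% interval -0.65 to -0.52), just inside 1.5-fold, and 5 of the alternative settings called it lower, at -0.61 to -0.59. In 1 of these the only control was the C3H sample of the same day, which is assumed to vary like the other samples. For Pde6b rd10 the log2 fold change of Opn1sw was 0.35 and for Prph rd2 0.15, the latter with an adjusted p of 0.0600.

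Because both opsins were measured in the same sample, their ratio does not depend on how the sample was scaled. Opn1sw over Opn1mw was 2.64 to 2.70 in C3H, 4.69 to 5.64 in Pde6b rd1, 2.04 to 2.21 in Pde6b rd10 and 3.19 to 3.33 in Prph rd2. The ratio was thus higher than in every C3H sample in Pde6b rd1 and Prph rd2 and lower in Pde6b rd10. With 3 samples against 3, an exact two-sided permutation test of a single ratio has 20 splits and cannot give a p under 0.1, which is the value wherever groups did not overlap.

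Arr3, the cone arrestin that shuts off the activated pigment, was called in Pde6b rd1 and not in the other models, and the difference to Prph rd2 was not tested. It had 23.1, 23.5 and 22.2 FPKM in C3H, 15.1, 14.9 and 14.3 FPKM in Pde6b rd1, 26.0, 26.3 and 26.2 FPKM in Pde6b rd10, and 20.5, 18.2 and 20.1 FPKM in Prph rd2. All samples of Pde6b rd1 and Prph rd2 lay under those of C3H, and all of Pde6b rd10 above. In Pde6b rd1, Arr3 fell with a log2 fold change of -0.71 (SE 0.05, adjusted p = 3.98e-11). It was 0.13 in Pde6b rd10 and -0.26 in Prph rd2, with adjusted p of 0.0281 and 0.0176, both short of 1.5-fold.

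The 3 subunits of cone transducin did not move together. Gnat2, the alpha subunit that carries the signal to the phosphodiesterase, had 23.0, 22.7 and 23.1 FPKM in C3H, 14.2, 13.7 and 14.7 FPKM in Pde6b rd1, 29.7, 29.7 and 29.6 FPKM in Pde6b rd10, and 25.9, 28.3 and 27.6 FPKM in Prph rd2. It was lowest in Pde6b rd1, and both other models lay above C3H in every sample. Its log2 fold change was -0.76 (SE 0.05, adjusted p = 3.31e-12) in Pde6b rd1. It was not called in Pde6b rd10, at 0.32, nor in Prph rd2, at 0.22. Gnb3 had 107.0, 107.4 and 111.9 FPKM in C3H, 121.5, 125.4 and 126.3 FPKM in Pde6b rd1, 163.5, 178.0 and 168.5 FPKM in Pde6b rd10, and 109.2, 108.1 and 106.8 FPKM in Prph rd2. Only Prph rd2 overlapped C3H, and the interval of its log2 fold change reached from -0.14 to 0.05. The rise of Gnb3 in Pde6b rd10, a log2 fold change of 0.59 (SE 0.04, adjusted p = 6.35e-11), stood at the edge of the fold threshold and lost its call under DESeq2 and without the filter on low counts, both at 0.58, and without Pde6b rd10 replicate 2, C3H replicate 1 or C3H replicate 2, at 0.55, 0.57 and 0.58. Summed markers of bipolar cells, which also use Gnb3, were 320 to 332 FPKM in C3H and 276 to 284 FPKM in Pde6b rd10, with 0 of 6 genes called.

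Gngt2 moved opposite to Gnat2 in Pde6b rd1, where it rose, and opposite to Gnb3 in Pde6b rd10, where it fell. It had 16.7, 14.8 and 18.4 FPKM in C3H, 34.9, 32.7 and 33.3 FPKM in Pde6b rd1, 9.43, 8.57 and 8.66 FPKM in Pde6b rd10, and 17.2, 18.7 and 12.4 FPKM in Prph rd2. Pde6b rd1 stood above and Pde6b rd10 under all C3H samples, and Prph rd2 spanned them. The log2 fold change of Gngt2 was 0.95 (SE 0.06, adjusted p = 7.48e-12) in Pde6b rd1 and -0.95 (SE 0.08, adjusted p = 3.33e-09) in Pde6b rd10. In Prph rd2 it was -0.08 with an interval of -0.34 to 0.17, and without Prph rd2 replicate 3, the lowest sample, it was 0.07. Gngt2 over Gnat2 in the same sample was 0.654 to 0.796 in C3H, 2.26 to 2.45 in Pde6b rd1 and 0.288 to 0.317 in Pde6b rd10, with no overlap, and 0.449 to 0.663 in Prph rd2, which overlapped C3H. On the opposite strand, Abi3 shares 234 bases or 12.5% of the exons of Gngt2. Abi3 had 36 to 59 reads in C3H and 116 to 128 in Pde6b rd10, where its log2 fold change was 1.39 (adjusted p = 2.92e-07). It was 0.16 in Pde6b rd1 and -0.27 in Prph rd2, neither called. The part of these shared bases in the counts of Gngt2 was not tested.

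The genes of the cone phosphodiesterase had the 2 largest rises of the 10 in Pde6b rd10. Pde6c, the catalytic subunit that breaks down cyclic GMP, had 8.40, 8.85 and 9.02 FPKM in C3H, 7.65, 7.05 and 7.17 FPKM in Pde6b rd1, 30.9, 30.1 and 31.2 FPKM in Pde6b rd10, and 7.64, 7.56 and 7.99 FPKM in Prph rd2. Pde6b rd10 stood far above all other samples, and both other models lay a little under C3H without overlap. Its log2 fold change was 1.75 (SE 0.05, adjusted p = 1.21e-16), a 3.37-fold rise, in Pde6b rd10. It was -0.34 (adjusted p = 1.72e-04) in Pde6b rd1 and -0.21 (adjusted p = 0.0640) in Prph rd2, neither called.

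Pde6h had the largest change of the 10 genes in Pde6b rd10. Its reads numbered 330, 385 and 333 in C3H, 120, 117 and 119 in Pde6b rd1, 2182, 1686 and 1829 in Pde6b rd10, and 574, 551 and 498 in Prph rd2. In FPKM these were 2.12, 2.04 and 2.14 in C3H, 0.700, 0.875 and 0.787 in Pde6b rd1, 11.2, 11.5 and 11.7 in Pde6b rd10, and 3.09, 2.93 and 2.62 in Prph rd2. No groups overlapped, and the order was Pde6b rd10, Prph rd2, C3H and Pde6b rd1. The log2 fold change of Pde6h was 2.39 (SE 0.06, adjusted p = 1.94e-18), a 5.25-fold rise, in Pde6b rd10 and -1.50 (SE 0.10, adjusted p = 1.02e-11) in Pde6b rd1. In Prph rd2 it was 0.42 (95% interval 0.25 to 0.60), short of the threshold. Arhgdib shares 136 bases or 1.73% of the exons of Pde6h on the opposite strand, and had 52 to 57 reads in C3H and 124 to 177 in Pde6b rd10. The part of these shared bases in the counts of Pde6h was not tested.

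The inhibitory subunit changed more than the catalytic one. Pde6h over Pde6c in the same sample was 0.231 to 0.252 in C3H, 0.0916 to 0.124 in Pde6b rd1, 0.364 to 0.381 in Pde6b rd10 and 0.328 to 0.405 in Prph rd2. Pde6b rd1 lay under and both other models above C3H, with no overlap.

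The channel subunits differed in direction. Cnga3 had 2.05, 1.76 and 2.07 FPKM in C3H, 1.54, 1.51 and 1.74 FPKM in Pde6b rd1, 4.07, 4.31 and 3.93 FPKM in Pde6b rd10, and 1.91, 1.70 and 1.96 FPKM in Prph rd2. Pde6b rd10 was above every other sample, Pde6b rd1 came just short of overlapping C3H, and Prph rd2 overlapped it. The log2 fold change of Cnga3 was 1.02 (SE 0.10, adjusted p = 1.40e-08) in Pde6b rd10, a 2.02-fold rise, and -0.36 (SE 0.12, adjusted p = 0.0160) in Pde6b rd1, which was not called. Cngb3, the beta subunit that joins Cnga3 in the channel, had 5.26, 5.65 and 5.54 FPKM in C3H, 8.41, 8.36 and 8.77 FPKM in Pde6b rd1, 5.55, 5.11 and 6.11 FPKM in Pde6b rd10, and 6.35, 5.39 and 6.43 FPKM in Prph rd2. Pde6b rd1 was above all other samples, and the other 3 groups overlapped. In Pde6b rd1 the log2 fold change of Cngb3 was 0.56 (SE 0.06, adjusted p = 2.21e-08), just short of 1.5-fold, and 3 alternative settings called it higher, at 0.62, 0.62 and 0.63. In Pde6b rd10 it was -0.03 with an interval of -0.18 to 0.12. Cngb3 over Cnga3 was 2.57 to 3.22 in C3H, 5.02 to 5.53 in Pde6b rd1 and 1.19 to 1.55 in Pde6b rd10, with no overlap, and 3.17 to 3.32 in Prph rd2, which overlapped C3H.

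**Figure D3:**
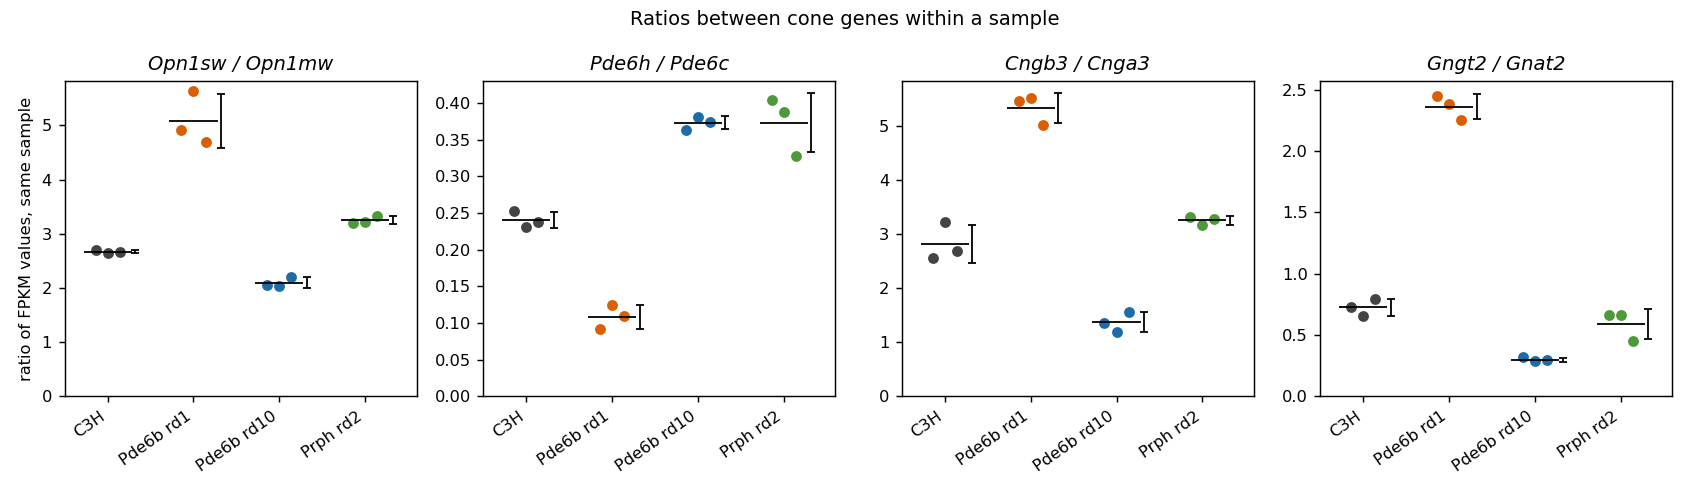
Ratio of the FPKM values of 2 cone genes in the same sample (vertical axes, linear from 0), with 1 point per sample, a line at the group mean and a bar of ± 1 SD (n = 3). Opn1sw over Opn1mw, Cngb3 over Cnga3 and Gngt2 over Gnat2 are highest in Pde6b rd1 and lowest in Pde6b rd10, and Pde6h over Pde6c is lowest in Pde6b rd1.

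The difference between both Pde6b alleles was tested directly, within 1 model fitted to the 12 samples. Pde6b rd10 had higher levels than Pde6b rd1 for 7 cone genes and lower for 1, Gngt2, while Gnb3 and Cngb3 were not called. Among all 19616 genes tested, 17.6% were called higher and 11.2% lower. The median log2 difference of the 10 genes was 1.03, against 0.00326 over all genes. Pde6h differed most, by a log2 value of 3.92 (SE 0.08, adjusted p = 7.01e-19) or 15.1-fold. Opn1mw followed with 2.23 (SE 0.06, adjusted p = 6.78e-17) and Pde6c with 2.12 (SE 0.06, adjusted p = 3.53e-17). Gngt2 differed by -1.87 (SE 0.11, adjusted p = 1.03e-11). These groups also differ in age, in strain and in the sex-linked transcripts given above, with 0 reads of Ddx3y in every sample of Pde6b rd1 and 1056 to 1696 in Pde6b rd10, and none of these can be told apart from the allele.

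The cone genes of the steps after the pigment were then set against the rod gene of the same step in the same sample, in percent of the rod gene's FPKM. This share depends on both genes, and how often it would not overlap for other pairs of genes is not given here. In Pde6b rd1, this share was higher than in C3H for 6 of 8 genes, without overlap. Gnat2 was at 4.82 to 5.33% of Gnat1 against 2.14 to 2.24% in C3H, and Gngt2 at 83.2 to 91.2% of Gngt1 against 27.01 to 32.4%. Pde6h went the other way, at 0.261 to 0.338% of Pde6g against 0.472 to 0.488% in C3H, and Cnga3 over Cnga1 overlapped C3H. In this model 7 of the 9 rod genes of these steps were called lower. In Pde6b rd10, Pde6c was at 9.67 to 10.1% of Pde6a against 2.80 to 3.08% in C3H, Pde6h at 4.29 to 4.62% of Pde6g, and Cnga3 at 6.10 to 7.42% of Cnga1 against 2.04 to 2.40%. Arr3 was at 11.6 to 11.8% of Sag against 5.32 to 5.83% in C3H, and Gnb3 at 25.2 to 27.4% of Gnb1 against 10.8 to 11.5%. Only Gngt2 over Gngt1 overlapped C3H in that model, at 25.2 to 31.1%. In Prph rd2, Gnat2 over Gnat1 was 2.90 to 3.52%, Gnb3 over Gnb1 was 14.6 to 15.2% against 10.8 to 11.5% in C3H, and Pde6h over Pde6g was 0.876 to 1.02%, all above C3H, while the other 5 pairs overlapped it.

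**Figure D4:**
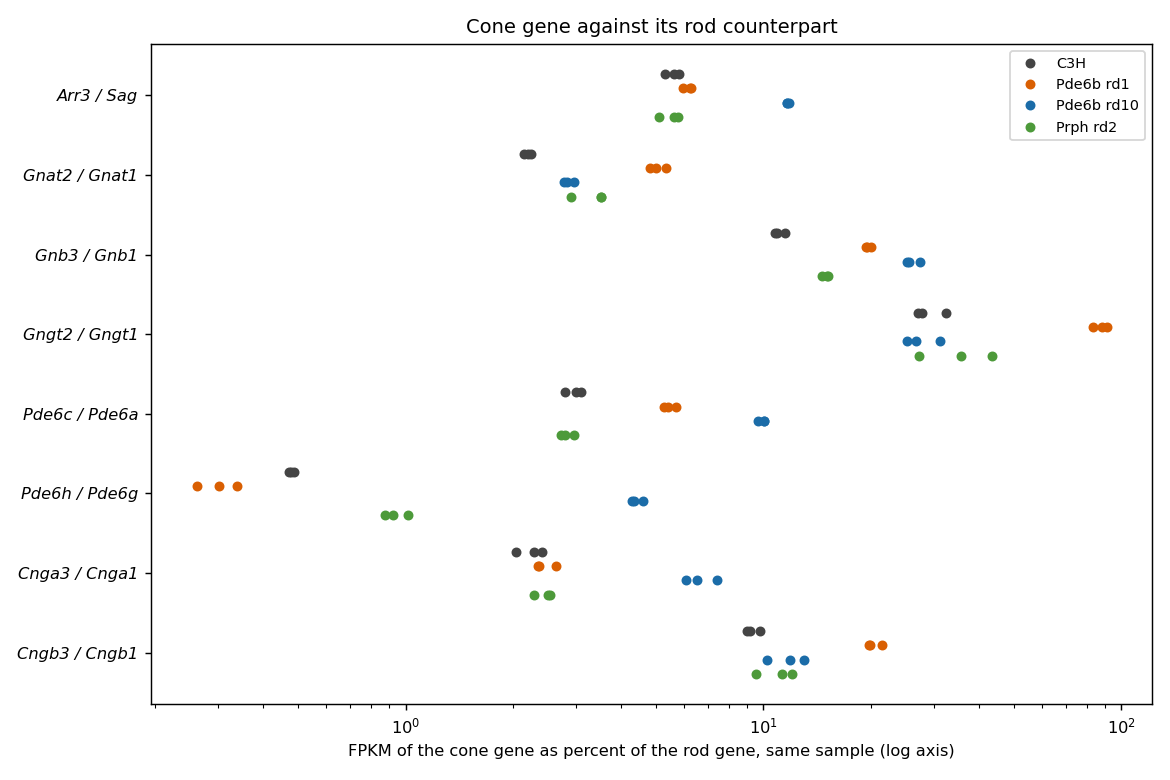
FPKM of 8 cone genes as percent of the rod gene of the same step in the same sample (horizontal log axis), with 1 point per sample and a colour per group. In C3H the shares run from under 1% for Pde6h over Pde6g to about 30% for Gngt2 over Gngt1. The Pde6b rd10 points of Pde6h, Pde6c, Cnga3, Arr3 and Gnb3 lie above those of all other groups.

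None of these rod counterparts, 9 with both catalytic subunits of the rod phosphodiesterase, was called higher in any model against C3H. In Pde6b rd1, 7 were called lower, with a median log2 fold change of -0.81. In Pde6b rd10, 4 were lower, with a median of -0.57, the 4 being Sag, Gngt1, Pde6g and Gnb1. In Prph rd2, 0 were called and the median was -0.24, although 8 of the 9 had an adjusted p under 0.05 with edgeR. The share of all genes under that adjusted p is not given here. The summed FPKM of 6 rod markers was 2198 to 2275 in C3H, 1069.9 to 1083 in Pde6b rd1, 1792 to 1872 in Pde6b rd10 and 1725 to 1861 in Prph rd2, while the summed FPKM of the 10 cone genes was 319 to 328, 285 to 290, 470 to 482 and 329 to 338. Gnat1 is the largest part of the rod sum, and Gnb3, which is not particular to cones, and Opn1sw are the largest of the cone sum. The rod markers moved unequally. In Pde6b rd10 the log2 fold change was -0.06 for Gnat1 and 0.01 for Pde6a, but -1.25 for Nr2e3, -0.93 for Sag, -0.87 for Nrl and -0.56 for Cnga1.

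A list of 12 phototransduction genes was taken as shared by cones and rods. How far each cell type uses each of them was not measured here. Of these genes, 8 were called lower and 0 higher in Pde6b rd1, with a median log2 fold change of -0.73. The largest changes there were -2.74 for Guca1b and -1.98 for Guca1a, which encode calcium sensors of the photoreceptor guanylate cyclase, followed by the opsin kinase Grk1 with -0.90 and Rgs9bp, which anchors the protein that switches transducin off, with -0.84. In Pde6b rd10, 3 were lower and 1 was higher, with a median of -0.39, namely Recoverin (Rcvrn) with -0.92, the cyclase Gucy2f with -0.76, phosducin (Pdc) with -0.67, and Guca1a with 0.73. In Prph rd2 only Guca1b was called, with -0.70. All of these named genes had an adjusted p of at most 3.30e-07 with edgeR. Over all genes tested, 6.03% were called lower and 8.98% higher in Pde6b rd1. These shares were 8.08% and 15.9% in Pde6b rd10, and 1.89% and 2.68% in Prph rd2.

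Of 6 other genes linked to cones, the exchanger gene Slc24a2, whose product removes calcium from cones, followed the same order of groups as Pde6h. Its level was 15.9 ± 1.08 FPKM in Pde6b rd10, 8.40 ± 0.659 FPKM in Prph rd2, 6.79 ± 0.0987 FPKM in C3H and 4.56 ± 0.0884 FPKM in Pde6b rd1 (SD, n = 3 each). It fell in Pde6b rd1 with a log2 fold change of -0.65 and rose in Pde6b rd10 with 1.17 (adjusted p = 1.78e-14), the only called gene of the 6 in Pde6b rd10. Kcne2 fell in Pde6b rd1 with -0.69. The factors Rxrg and Thrb, which regulate opsin choice in cones, were not called in any comparison, and none of the 6 was called in Prph rd2.

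Markers of other cells moved with some of these changes. The summed FPKM of 6 microglia markers was 18.8 to 19.7 in C3H, 18.9 to 19.7 in Pde6b rd1, 51.4 to 53.9 in Pde6b rd10 and 16.1 to 18.2 in Prph rd2, with 5 of the 6 genes called higher in Pde6b rd10. The remaining one, P2ry12, had a log2 fold change of -0.36 there and was not called. The summed FPKM of 5 Müller glia markers was 707 to 720 in C3H, 345 to 352 in Pde6b rd1, 570 to 596 in Pde6b rd10 and 772 to 807 in Prph rd2. Most of this sum is Glul, and the 5 genes moved unequally. In Pde6b rd1, Glul and Aqp4 were called lower, with log2 fold changes of -1.54 and -1.38, while Rlbp1 (-0.30), Slc1a3 (0.00) and Sox9 (0.05) were not called. In Pde6b rd10, Slc1a3 was called lower with -0.76, while Aqp4 (0.28) and Sox9 (0.52) lay above 0, and in Prph rd2 none of the 5 was called. The sum of 4 ganglion cell markers was 89.0 to 96.6 FPKM in C3H and 75.8 to 81.0 FPKM in both Pde6b models, with 0 of 4 called in either. The sum of 6 pigment epithelium markers was 11.2 to 12.2 FPKM in C3H, 7.80 to 8.85 in Pde6b rd1, 10.5 to 12.3 in Pde6b rd10 and 10.9 to 11.3 in Prph rd2. These genes moved unequally too. In Pde6b rd1, Lrat (-0.99), Rgr (-0.90) and Rpe65 (-0.72) were called lower, while Tyrp1 (-0.18) and Pmel (-0.15) were not called. In Pde6b rd10, Tyrp1 was called higher with 1.11, while Rgr (-0.52), Rpe65 (-0.47), Lrat (-0.26) and Pmel (0.08) were not called. The part of these cells in the cone gene differences was not tested.

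The genes outside these lists whose changes lay closest to the median of the cone genes were Mfsd13a, Rgs11, Aldh2, Gm45153, Mecom, Ahr, Cd9, Slc9a3r1, Cdkn2c and Tsc22d4. They were chosen from 12513 genes by the Euclidean distance between their 3 log2 fold changes over C3H and the cone median, which was 0.034 for Mfsd13a and 0.10 for Tsc22d4. The cone genes themselves lay at distances from 0.26 for Opn1sw to 2.23 for Pde6h, so that the median describes few of its own members.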

How the data were processed

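Counts, FPKM values and circRNA junction counts were taken for 12 retina samples grouped by their labels. The authors removed adapter, unknown-base and low-quality reads, aligned the rest to GRCm38 and deposited the unnormalized read counts per gene (HTSeq v0.11.2). The strand setting was not given in the sources used here. The deposited FPKM values scale these counts to gene length and sample depth, and for 10 of 10 cone genes the length equalled that of all exons in GENCODE vM21 within 1 base. The deposited circRNA counts are back-splice junction reads (TopHat2 v2.1.1, CIRCexplorer), and the TPM values that the authors made from them, relative to all circRNA reads of a sample, were not used. No column of values was left unmapped.

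Each model was compared with C3H in R 4.3.3 with edgeR 4.0.16 (TMM, filterByExpr, quasi-likelihood test, no covariate), and both Pde6b alleles in a fit of all 12 samples. Calls needed 1.5-fold or more and an unadjusted p under 0.05, the study's thresholds. Adjusted p-values are Benjamini-Hochberg over all genes tested. The steps were tested on simulated counts. Cone genes, their rod counterparts, 12 shared and 6 other cone genes, and cell type markers were named from lists. Of the shared and other lists, at most 4 called genes with the largest changes were named per comparison. The genes most alike were the 10 with a mean count of at least 100 and the smallest distance. Members and lists were chosen with earlier results of these data known. The settings varied were the tool (DESeq2 1.42.0, or limma 3.58.1 with log2(FPKM + 1) or log2(FPKM + 0.1)), RLE factors, no filter, calls by adjusted p, a joint fit of the 12 samples (for the alleles, only their 6), the same-day C3H sample, a replicate block, each replicate left out, and total-count scaling. Tables and figures were made with Python 3.11.15, numpy 2.4.6, pandas 2.3.3 and matplotlib 3.10.9. Proteins and tissue images were not analysed here. Some results are left out, and the lists used hold 9 rod counterparts and 6 rod markers.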

Additional observations from a re-analysis of the deposited data

Results flagged for a closer look

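The changes of 8 cone genes differed between the Pde6b alleles by the direct contrast of Pde6b rd10 with Pde6b rd1, in which the shared C3H samples cancel (edgeR, 12 samples, with the same criteria for a call). The log2 difference was 3.92 for Pde6h, 2.23 for Opn1mw, 2.12 for Pde6c, 1.40 for Cnga3, 1.10 for Gnat2, 0.96 for Opn1sw, 0.87 for Arr3 and -1.87 for Gngt2. Among all 19616 genes tested, 17.6% were called higher and 11.2% lower in this contrast. All samples of Pde6b rd10 were above those of Pde6b rd1 for the first 7 genes and under them for Gngt2. The genes were picked by the contrast of these same samples, so that this lack of overlap adds no support. Age, strain and the levels of the sex-linked Xist and Ddx3y differ between these groups as well and cannot be told apart from the allele, and Opn1mw and Arr3 lie on the X chromosome. Groups of 3 samples were not tested for single outlying samples.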

How the results depend on the processing

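Of 126 values of the 8 counts of called cone genes under alternative settings, 120 stayed within 1.5 times the reported count, and of 630 values for single genes 609 kept their direction and side of the threshold. The count called higher in Pde6b rd1, 1 gene, was 2 with limma on log2(FPKM + 0.1), with the C3H sample of the same labelled day alone as control, and with total-count scaling, an alternative chosen after seeing the data. The count called lower in Pde6b rd10 against Pde6b rd1, 1 gene, was 2 with the same limma setting and with total-count scaling, and 1 to 2 when single replicates were left out, with 2 without Pde6b rd10 replicate 3. In each case the added gene was Cngb3, at log2 values of 0.62, 0.62 and 0.63 in the first and -0.60, -0.61 and -0.63 in the second comparison. The log2 fold change of Cngb3 in Pde6b rd10, -0.03, turned to 0.0198 with limma on log2(FPKM + 1), 0.0226 on log2(FPKM + 0.1) and 0.0262 with total-count scaling, and ranged from -0.0888 to 0.0255 when single replicates were left out, being above 0 without Pde6b rd10 replicate 2. That of Gngt2 in Prph rd2, -0.08, ranged from -0.198 to 0.0729, being above 0 without Prph rd2 replicate 3. The cause of these shifts was not tested. Total-count scaling moved the median of all genes to between -0.04 and 0.06, under 0.1 in every comparison. Same-numbered samples of the groups compared had deviations that correlated at -0.09 to 0.15, not above 0.1 in every pair of any comparison, so that the numbers were not taken to pair the samples. In Pde6b rd1 and C3H each sample correlated best with its own number, which is a hint from the data only. With the replicate block 1 cone gene was called higher and 4 lower for Pde6b rd1, 5 and 1 for Pde6b rd10, 0 and 0 for Prph rd2, and 7 and 1 between the Pde6b alleles, as without the block. At this depth the circRNAs of the cone genes had too few junction reads for a test.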

Other observations

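Circular RNAs, formed by back-splicing of exons, were listed for 2 of the 10 cone genes, Cngb3 and Pde6c, with 5 each among 12510 circRNAs. They had 43 junction reads in all, 30 for Cngb3 and 13 for Pde6c, and at most 4 for 1 circRNA in a sample. Reads for Pde6c circRNAs numbered 9 in Pde6b rd10, 2 each in Pde6b rd1 and Prph rd2, and 0 in C3H. For Cngb3 they numbered 15 in Prph rd2, 9 in Pde6b rd10, 4 in C3H and 2 in Pde6b rd1. The most read, from Cngb3, spans positions 19375199 to 19396802 of chromosome 4 (GRCm38, start as deposited, counted from 0) with 15 reads in 6 samples, and its ends match annotated exon ends, as do those of all 10. These counts are too few for a test, and no change is read from them.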
